A study of Homo sapiens with 5 samples.

Results

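This report describes 10 genes of secreted growth factor signalling, ANGPT1, ANGPT2, VEGFC, FGF2, FGFR1, PDGFA, PDGFC, PDGFRB, KITLG and HGF, among the 18724 genes that 1 or both of 2 array tables name. The genes were picked by name, with earlier results of these same arrays known, and each was read from its brightest probe among those annotated with exactly 1 gene symbol. By that rule all 10 were measured in the table of 2 arrays and 9 in the table of 3 arrays, where FGF2 has no probe of its own. Because the choice of genes drew on these differences, the values below are descriptions and no test was made of them.

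The arrays hold RNA from MCF12A, an established line of breast epithelium that does not form tumours, kept in a medium with horse serum, epidermal growth factor, hydrocortisone, insulin and cholera toxin, which all 5 cultures share. In the table of 3 arrays, 1 culture was untreated (control), 1 was kept for 4 weeks in 2.5% ethanol and 1 for 4 weeks in 1% acetaldehyde, the first product of ethanol oxidation. In the table of 2 arrays, 1 culture was a single clone that had grown in soft agar after ethanol exposure and was then returned to monolayer culture, and the other was its control. The labels give the ethanol of the clone as 2.5% for 4 weeks in one place and in mM units in another, and its control is tagged as untreated and also as soft agar selected, so what separates those arrays beyond ethanol cannot be told apart. The labels also tie the array design of this pair to the shorter exposures of the wider study, and one protocol has the clone meeting ethanol again after selection, so the length of its exposure is uncertain. For the first table the array design and the titles give the same length. There is 1 array per group, so no value below has an error or a replicate check, and so few arrays limit how precise any difference can be. All values are RMA intensities as deposited, on a linear scale, and differences are log2 of one array over another within a table.

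Angiopoietins, PDGFs, FGFs, VEGFs, KIT ligand and hepatocyte growth factor are secreted or membrane-held proteins that bind receptor tyrosine kinases on nearby cells. In breast tissue, as elsewhere, much of this traffic runs between epithelium and stroma: mural and stromal cells are a usual source of ANGPT1 and HGF, endothelial cells carry the angiopoietin receptor TEK and the VEGF receptors, and mesenchymal cells carry the PDGF receptors. FGF2 signals through FGFR1 and its relatives together with heparan sulphate chains. KIT ligand acts on cells with the receptor KIT, such as mast cells, melanocytes and germ cells.

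Array medians lay between 70.0 and 70.6 in the table of 3 arrays and were 94.0 and 89.9 for the clone's control and the clone. A difference was counted only where it was at least 2-fold and the brighter array was at or above a floor, the median intensity of its table, 70.2 for the 3 arrays and 92.0 for the other pair. This floor is not a measured background. Where the dimmer array lay under it, the floor takes the place of the dimmer value and the fold is written as "at least". In the table of 3 arrays many probes carry the same value on different arrays: 43.9% of all probes were equal, within 1e-06 on the log2 scale, between ethanol and control. The share was 48.2% between acetaldehyde and control and 1.02% in the other table. Between ethanol and control it was 28.5% for probes past the floor and 59.8% for those under it. Of the breast epithelial markers, KRT5, KRT8, KRT18, KRT19, KRT14, EPCAM and CDH1 were past the floor in both controls and in the treated cultures, but several were much lower in ethanol and in the clone. In ethanol CDH1 was 9.49-fold lower, at 117 against 1114, EPCAM 7.19-fold lower and KRT14 5.79-fold lower, whereas KRT8 was 2.08-fold higher. In acetaldehyde 0 of these 7 markers differed from control by 2-fold. In the clone KRT14 was 16.2-fold and KRT5 3.11-fold lower, and EPCAM and CDH1 were under the floor, at 48.7 against 378 and 43.6 against 919.8. KRT17 and TP63 were not measured by a probe of their own.

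Of the angiopoietin ligands, ANGPT1 was far above control in ethanol, in acetaldehyde and in the clone, and ANGPT2 was not past the floor in any culture. ANGPT1, a secreted activator of the receptor TEK, read 78.5 in the control, 1168 in ethanol, 704 in acetaldehyde, 39.3 in the clone's control and 1879 in the clone. Both controls were dim, near or under the floor, and the 3 exposed cultures were far above them. The log2 difference from control was 3.89 in ethanol and 3.16 in acetaldehyde, a 14.9-fold and an 8.97-fold higher intensity. In the clone it was 5.58, at least 20.4-fold higher than its control. Ordered by difference among all genes past the floor, ANGPT1 stood at place 10 of 11264 from the top in ethanol and place 8 of 11194 in acetaldehyde. In the clone no place is given, since its control was under the floor. ANGPT2, which competes with ANGPT1 at the same receptor, stayed under the floor on every array, at 24.8 in the control, in ethanol and in acetaldehyde, at 36.1 in the clone's control and at 30.6 in the clone. Its 3 values in the first table were equal.

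**Figure D1:**
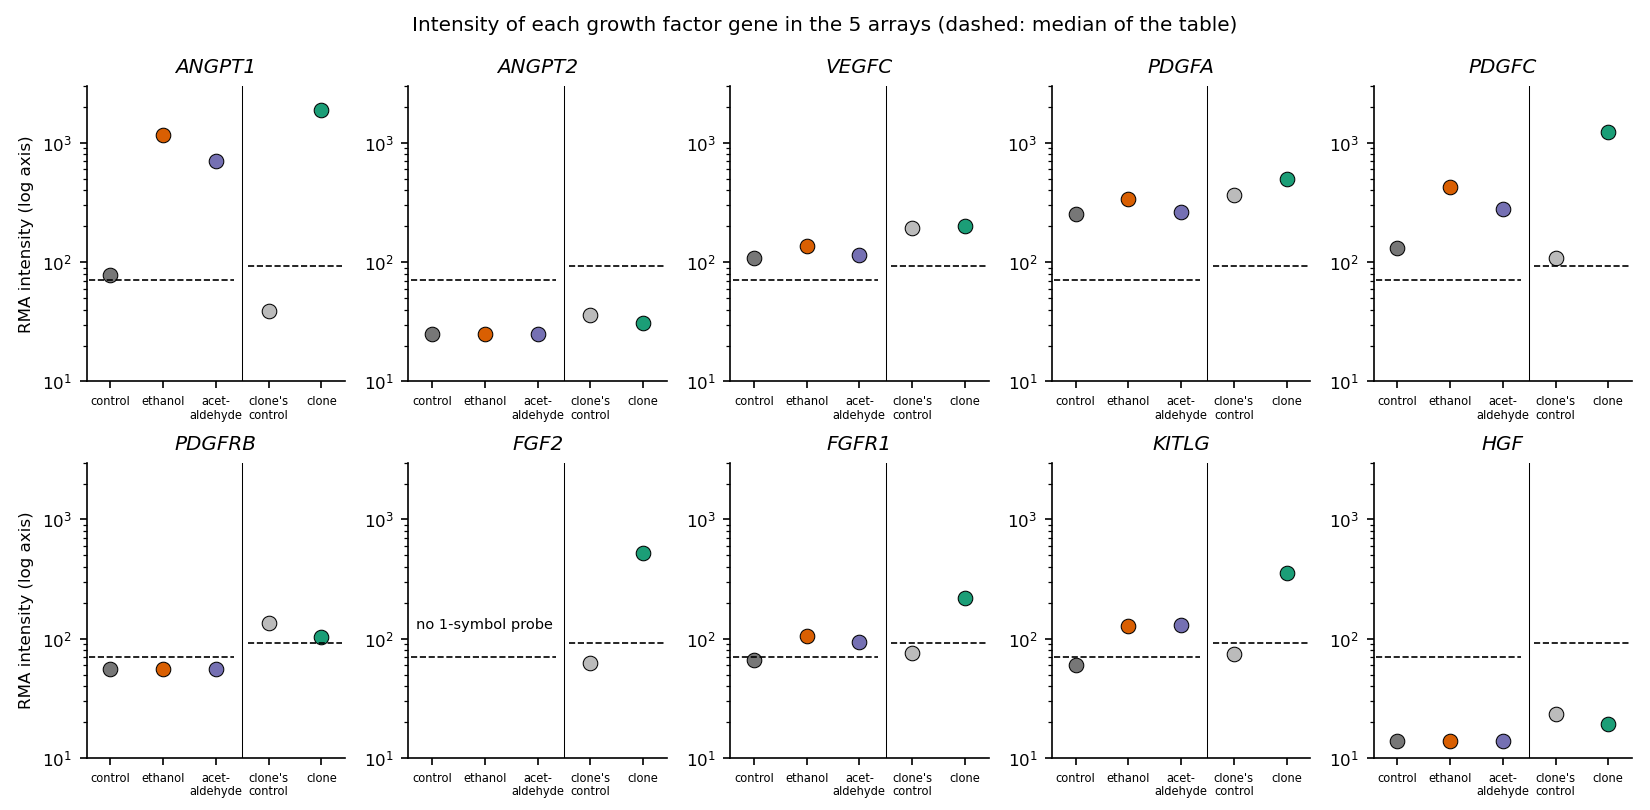
Each panel plots the RMA intensity (log axis) of 1 gene on the 5 arrays, with 1 point per array, a vertical line between the separately processed tables and a dashed line at the floor of each table (70.2 and 92.0). ANGPT1 and PDGFC are brightest in ethanol among the first 3 arrays and reach 1879 and 1232 in the clone, whereas ANGPT2 and HGF lie under the floor on every array; FGF2 has no 1-symbol probe in the first table.

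The receptors of these ligands were dim. TEK, the angiopoietin receptor, read 34.3 in the control, in ethanol and in acetaldehyde, 48.1 in the clone's control and 38.7 in the clone. Its relative TIE1 was also under the floor on all 5 arrays, with 36.4 in the first 3, 70.9 in the clone's control and 66.0 in the clone. Neither receptor was therefore past the floor in any culture in which ANGPT1 was bright. SVEP1, a large extracellular matrix protein that binds TIE1, was counted with this family. It read 35.9 in the control, 105 in ethanol and 58.4 in acetaldehyde, and it stood at 32.6 in the clone's control and 1552 in the clone. Its log2 difference was 1.55 in ethanol, at least 1.49-fold higher, and 5.57 in the clone, at least 16.9-fold higher. ANGPTL4, a secreted inhibitor of lipoprotein lipase, was 2.05-fold higher in ethanol, at 786 against 383, and below control in acetaldehyde, at 316, and in the clone, at 251 against 284.

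VEGFC, a ligand of the lymphatic receptor FLT4, was close to control everywhere. It read 109 in the control, 137 in ethanol and 115 in acetaldehyde, with log2 differences of 0.33 and 0.08. In the second table it read 193 in the clone's control and 200.5 in the clone, a log2 difference of 0.06, which was -0.02 once the arrays were quantile-normalised again. FLT4 itself read 45.3 on the first 3 arrays, 95.9 in the clone's control and 79.9 in the clone. KDR, the main receptor of VEGFA in endothelium, read 39.0 on the first 3 arrays, and 69.3 and 275 in the clone's control and the clone, at least 2.99-fold higher. The co-receptor NRP1 was 6.04-fold higher in the clone, at 633 against 105, and had a log2 difference of 0.82 in ethanol. Its relative NRP2 was 2.40-fold lower in ethanol, at 115 against 276, and at least 1.15-fold lower in the clone, at 52.9 against 106. VEGFA, the central angiogenic ligand, had log2 differences of -0.96 in ethanol, -0.34 in acetaldehyde and 0.11 in the clone.

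The PDGF ligands were divided. PDGFC, a ligand that is secreted as a latent form and activated by proteolysis, read 132 in the control, 430 in ethanol and 279 in acetaldehyde, and 109 in the clone's control against 1232 in the clone. Every control value was past the floor, and every exposed culture was above its control. The log2 differences were 1.71 in ethanol, 1.09 in acetaldehyde and 3.50 in the clone, that is 3.26-fold, 2.12-fold and 11.3-fold higher. PDGFC stood at place 120 of 11264 from the top in ethanol, 100 of 11194 in acetaldehyde and 52 of 12262 in the clone. The gene was chosen with these differences known. PDGFA, a ligand of PDGFRA, was past the floor on all 5 arrays and within 1.35-fold of its control: 252, 339 and 265 in the control, ethanol and acetaldehyde, and 368 and 497 in the clone's control and the clone. Its log2 difference was 0.43 in ethanol, 0.08 in acetaldehyde and 0.43 in the clone. A second PDGFA probe, in the first table only, was under the floor at 47.0 on all 3 arrays, so the 2 probes do not give the same difference in ethanol.

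PDGFRB, the receptor that marks pericytes and fibroblasts, read 55.8 in the control, in ethanol and in acetaldehyde, with equal values under the floor. In the second table it was past the floor and somewhat lower in the clone, at 103 against 136, a log2 difference of -0.41, while a probe that lists both EBF1 and PDGFRB, and so names neither, had 1.27. PDGFRA, to which PDGFC binds, was under the floor on every array, at 32.6 in the control and 32.7 in ethanol and acetaldehyde, and 39.9 in the clone's control against 57.0 in the clone. Among the proteases that act on latent ligands, PLAT, the tissue plasminogen activator that cleaves PDGFC, had log2 differences of -0.73, -0.23 and 0.39 in ethanol, acetaldehyde and the clone. ST14, which encodes the surface protease matriptase, was 2.68-fold lower in ethanol, at 81.1 against 218, and at least 3.46-fold lower in the clone, at 78.9 against 319. LRP1, an endocytic receptor that partners PDGFRB, was 2.27-fold higher in ethanol and 2.48-fold higher in the clone.

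FGF2, the basic fibroblast growth factor, could be read from a probe of its own only in the second table, since its probes in the first also list NUDT6. It was under the floor in the clone's control, at 63.0, and read 521 in the clone. The log2 difference was 3.05, at least 5.66-fold higher. Its receptor FGFR1 was dim but in the same direction in each comparison: 65.8 in the control, 105 in ethanol and 94.3 in acetaldehyde, then 75.6 in the clone's control and 221 in the clone. Both controls lay under the floor and the 3 other cultures over it. The log2 difference was 0.67 in ethanol and 0.52 in acetaldehyde, short of 2-fold, and 1.54 in the clone, at least 2.40-fold higher. The other FGF receptors did not move together. FGFR3 read 269 in the control, 124 in ethanol and 270 in acetaldehyde, 2.18-fold lower in ethanol, and 231 against 118 in the clone, a log2 difference of -0.97. FGFR2 read 118, 70.3 and 109 in the first 3 arrays, with a log2 difference of -0.75 in ethanol, and was under the floor in the clone and its control. FGFR4 was under the floor on every array. FGFRL1, a relative without the kinase domain, was slightly above control throughout, at 210, 257 and 240 in the control, ethanol and acetaldehyde and at 417 and 454 in the clone's control and the clone, log2 differences of 0.29, 0.19 and 0.12. FLRT2, a membrane protein that binds FGF receptors, was at least 4.50-fold higher in the clone, at 414 against 80.1.

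KITLG, the ligand of KIT, was higher in all exposed cultures by a moderate amount. It read 60.2 in the control, 128 in ethanol and 130 in acetaldehyde, and 74.8 in the clone's control and 356 in the clone. Both controls were under the floor and the others over it. The log2 differences were 1.09, 1.11 and 2.25, at least 1.82-fold, at least 1.85-fold and at least 3.87-fold higher. They were counted as 2-fold on the deposited values. With dim values raised to the floor the first pair of differences became 0.86 and 0.89, under 2-fold. KIT read 18.4 on the first 3 arrays, 17.1 in the clone's control and 18.8 in the clone, well under the floor.

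HGF, the scatter factor that stromal cells send to epithelium, was far under the floor on each array. It read 13.9 in the control, in ethanol and in acetaldehyde, 23.3 in the clone's control and 19.4 in the clone. The receptor MET was bright: 1141 in the control, 823 in ethanol and 1023 in acetaldehyde, with log2 differences of -0.47 and -0.16. In the clone MET was 2.44-fold higher, at 1367 against 561. SPINT1 and SPINT2, the surface inhibitors of the proteases that activate HGF, were lower in ethanol and in the clone. SPINT1 was 4.35-fold lower in ethanol, at 114 against 496, and 19.8-fold lower in the clone, at 130 against 2582. SPINT2 was 3.65-fold and 8.45-fold lower in the same cultures. In the clone TMPRSS13, a surface protease gene, was at least 1.84-fold lower and MST1, a relative of HGF, at least 1.81-fold higher. In acetaldehyde SPINT1 and SPINT2 were 3.74-fold and 3.10-fold higher than in ethanol.

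**Figure D2:**
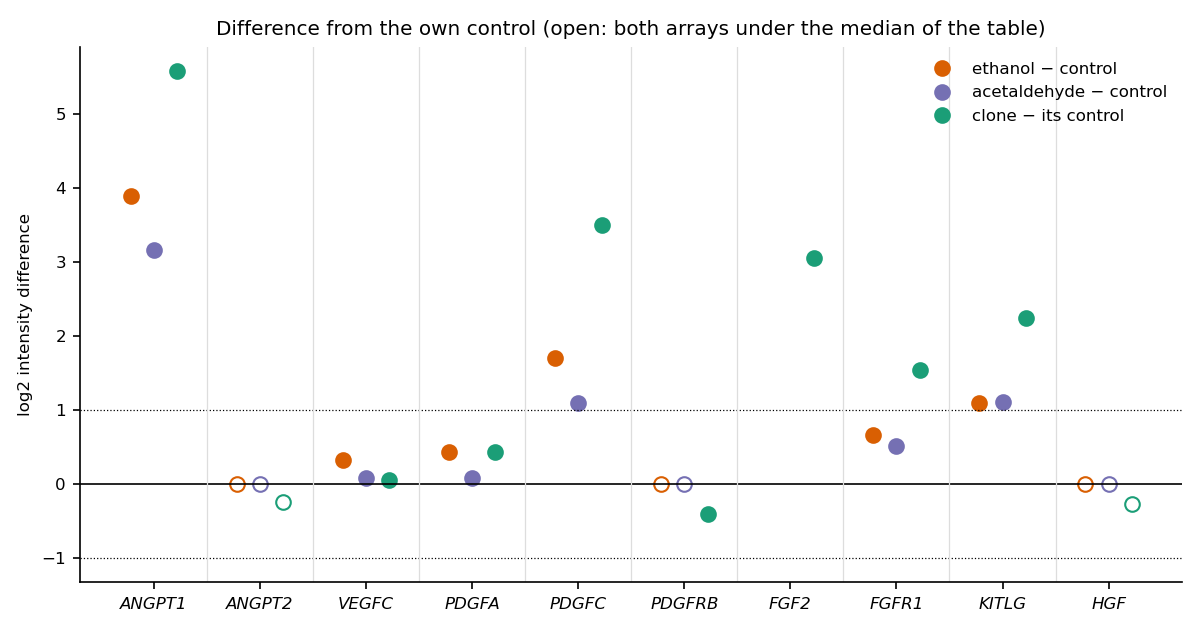
The log2 intensity difference of each gene from its own control (y axis) is shown for ethanol, acetaldehyde and the clone, with 1 point per comparison, open points where both arrays were under the floor and dotted lines at 2-fold. ANGPT1, PDGFC and KITLG lie past the upper line in all 3 comparisons, from 1.09 to 5.58, and no gene lies past the lower one.

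Sequence was at hand for the stretch before the start of KITLG and FGF2, which were counted as higher, and of VEGFC, which was not; these show the kind of start region each gene has. RefSeq promoter entries (GRCh38.p14) matched 6 of the 10 genes. ANGPT1, ANGPT2, FGFR1 and PDGFC had none. The windows run from 250 bases before to 50 after a start, and 6 motifs were searched on both strands. AP-1 was spelled TGANTCA. The letters taken for TEAD factors were CATTCC. An E-box was searched as CACCTG. The core of a CRE was searched as TGACG. The TATA box was TATAAA, and the last motif was the CCAAT box. No matches overlap in the stretches shown. The stretches below hold only bases before the first annotated base of the gene, written on the gene's strand, with matches in capitals: KITLG at chr12:88580472-88580721 (minus strand), VEGFC at chr4:176792923-176793172 (minus strand) and FGF2 at chr4:122826581-122826681 (plus strand).
KITLG: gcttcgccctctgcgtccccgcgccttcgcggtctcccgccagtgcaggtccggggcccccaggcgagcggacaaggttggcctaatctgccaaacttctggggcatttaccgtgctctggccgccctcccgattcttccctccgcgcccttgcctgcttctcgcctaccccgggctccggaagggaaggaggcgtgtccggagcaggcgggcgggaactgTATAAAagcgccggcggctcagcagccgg
VEGFC: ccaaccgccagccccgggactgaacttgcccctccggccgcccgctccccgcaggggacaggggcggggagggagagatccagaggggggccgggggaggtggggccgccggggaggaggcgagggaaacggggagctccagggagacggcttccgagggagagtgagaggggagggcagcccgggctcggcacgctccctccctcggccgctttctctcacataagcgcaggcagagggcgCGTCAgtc
FGF2: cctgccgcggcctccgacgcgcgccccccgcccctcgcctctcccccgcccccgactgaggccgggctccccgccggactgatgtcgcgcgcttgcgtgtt
KITLG holds TATAAA, whose first base lies 29 bases before the start, a motif found in 11.5% of 35116 promoter windows. The VEGFC stretch holds the CRE core on the strand opposite the gene, so that the capitals show its reverse complement, from 8 bases before the start. The FGF2 window holds the CRE core further on than the bases shown. This motif occurs in 24.6% of windows. None of the windows of KITLG, VEGFC and FGF2 holds the AP-1, TEAD or E-box letters, which occur in 7.71%, 14% and 20.6% of windows. Among the genes whose stretches are not printed, the HGF window holds the TEAD letters, 3 of 4 PDGFA windows hold the E-box and 1 the CRE core, and the CCAAT box lies in the PDGFRB window and in 1 of PDGFA. The windows of KITLG, VEGFC and FGF2 are rich in G and C, at 69.7%, 76.3% and 74.7%. A match describes the letters only.

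In counts, 3 of the 6 genes past the floor in ethanol were at least 2-fold higher and 0 lower. Of all genes past the floor, 2.63% were higher and 2.44% lower. In acetaldehyde the same counts were 3 and 0, where 1.03% of genes were higher and 0.0536% lower. In the clone 5 of the 8 past the floor were higher and 0 lower, where 14.7% were higher and 5.83% lower. The genes higher in ethanol and in acetaldehyde were ANGPT1, PDGFC and KITLG, and in the clone FGF2 and FGFR1 besides these. In ethanol and acetaldehyde KITLG was counted on the deposited values. Against the floor it was at least 1.82-fold and at least 1.85-fold higher. These contrasts served to choose the genes, so nothing is read from the counts. The control array is shared by ethanol and acetaldehyde. In ethanol and acetaldehyde 6 of the 9 genes were past the floor, and in the clone 8 of 10. The median over all genes past the floor was 0.00 in ethanol and acetaldehyde and -0.02 in the clone.

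**Figure D3:**
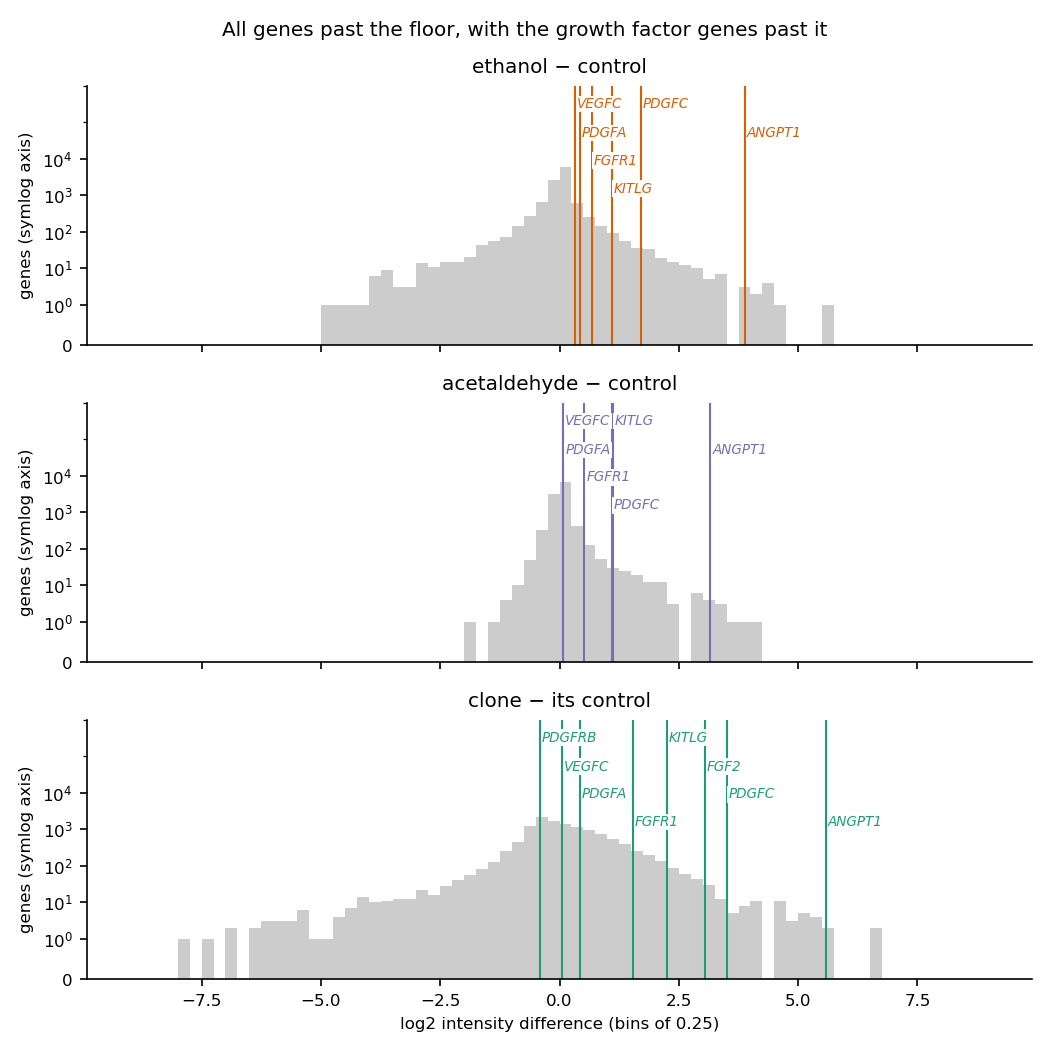
Grey bars count all genes past the floor by log2 difference (bins of 0.25; the count axis is linear to 1 and logarithmic above), and coloured lines mark the growth factor genes past the floor in each comparison. ANGPT1 lies at 3.89, 3.16 and 5.58, in the thin right tail each time, whereas VEGFC lies between 0.06 and 0.33, inside the bulk.

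Acetaldehyde was also set against ethanol, at doses that differ in the labels. None of the 9 genes, 6 of them past the floor, differed by 2-fold. Of all genes past the floor, 1.85% were higher in acetaldehyde and 0.526% lower. ANGPT1 was 1.66-fold lower in acetaldehyde than in ethanol, a log2 difference of -0.73, and PDGFC was 1.54-fold lower, at -0.62. PDGFA and VEGFC had log2 differences of -0.35 and -0.25, and FGFR1 had -0.15. KITLG was level between the compounds, at 0.02. ANGPT2, HGF and PDGFRB had equal values. Among the other pathway genes, ST14, FGFR3 and NRP2 were 2.57-fold, 2.18-fold and 2.14-fold higher in acetaldehyde than in ethanol, and ANGPTL4 was 2.49-fold lower. FGFBP1, listed with the other FGF receptor genes, was also counted as higher, at 120 in acetaldehyde and, under the floor, 54.0 in ethanol.

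The other genes of these pathways were taken from 10 lists with 158 genes, of which 143 were measured. Of those past the floor, ethanol had 10 of 90 higher and 6 lower by 2-fold, acetaldehyde 4 of 88 higher and 1 lower, and the clone 27 of 100 higher and 13 lower. Over all genes past the floor the shares higher and lower were 2.63% and 2.44% in ethanol, 1.03% and 0.0536% in acetaldehyde, and 14.7% and 5.83% in the clone. The counts of each list below stand beside these shares, and no list was tested against them or between cultures. The medians were 0.00, 0.00 and -0.15, against 0.00, 0.00 and -0.02 over all genes past the floor. Of 21 other FGF ligands, 8 were past the floor in ethanol, 8 in acetaldehyde and 10 in the clone, and none of these reached 2-fold, and 17 of the 21 had equal values in ethanol and control. Of 23 adaptor genes measured, which carry signals from the receptors inward, 0 of 21 past the floor reached 2-fold in ethanol or acetaldehyde. In the clone 6 of 22 were higher and 2 lower, where 14.7% and 5.83% of all genes were. PIK3R1, a regulatory subunit of PI3-kinase, was 4.30-fold higher, PLCG1, a phospholipase, was 2.73-fold higher, SOS1, an exchange factor for RAS, was 2.64-fold higher, while the adaptor genes GRB7 and GRB14 were at least 10.3-fold and at least 1.11-fold lower.

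Heparan sulphate chains hold FGF2 at its receptors. Of 16 genes for these chains and their carriers past the floor, 2 were at least 2-fold higher in ethanol, 2 in acetaldehyde and 4 in the clone, and 1 was lower in the clone, with medians of 0.13, 0.04 and 0.30. Of all genes 2.63%, 1.03% and 14.7% were higher in these comparisons, and 5.83% lower in the clone. SULF1, which removes sulphate groups from the chains, read 58.8 in the control, 362 in ethanol and 247 in acetaldehyde, and 40.0 in the clone's control against 270 in the clone. It was at least 5.16-fold, at least 3.52-fold and at least 2.94-fold higher. GPC6, a membrane-anchored glypican, was 4.66-fold, 2.43-fold and 5.67-fold higher. In the clone the sulphotransferase NDST1 was 3.62-fold higher and the syndecan SDC1 of epithelial cells 3.11-fold lower.

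These receptors switch on the ERK pathway, which induces feedback genes. In ethanol 1 of 12 genes listed as such and past the floor was at least 2-fold higher, where 2.63% of all genes were. It was the transcription factor gene ETV1, 3.46-fold. In acetaldehyde 0 of 12 reached 2-fold, and DUSP6, ETV5 and SPRY4 had log2 differences of -0.92, -0.83 and -0.84. Set against ethanol, acetaldehyde was 2.25-fold lower for DUSP6, 2.17-fold lower for SPRY4 and 2.49-fold lower for ETV1. In the clone 6 of 13 were higher and 2 lower, where 14.7% and 5.83% of all genes were. Their median was 0.38. ETV5 and ETV1, transcription factor genes, were at least 3.22-fold and at least 2.99-fold higher and the phosphatase gene DUSP6 at least 2.76-fold. DUSP5, another phosphatase gene, was 4.21-fold lower. SPSB1, counted with this list, was 4.12-fold lower, and whether ERK induces it was not tested.

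Among ligands of other receptor kinases, ethanol had 4 of 8 past the floor higher by 2-fold and 1 lower, 2 were higher and 1 lower in acetaldehyde, and 4 were higher and 3 lower in the clone, with medians of 0.61, 0.09 and 0.12. The shares over all genes were 2.63% higher and 2.44% lower in ethanol, 1.03% and 0.0536% in acetaldehyde, and 14.7% and 5.83% in the clone. CSF1, the macrophage growth factor, was 6.42-fold, 3.45-fold and 6.77-fold higher in ethanol, acetaldehyde and the clone. PROS1, a vitamin K-dependent ligand of the TAM receptors, was 2.88-fold, 2.72-fold and 2.81-fold higher, and its relative GAS6 was 2.20-fold higher in ethanol and 6.57-fold higher in the clone. HBEGF, an epidermal growth factor relative, was 3.19-fold, 2.14-fold and 10.1-fold lower. The ephrin gene EFNA1 was 6.24-fold lower in the clone, and TGFA, a further ligand of the epidermal growth factor receptor, 2.16-fold lower.

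**Figure D4:**
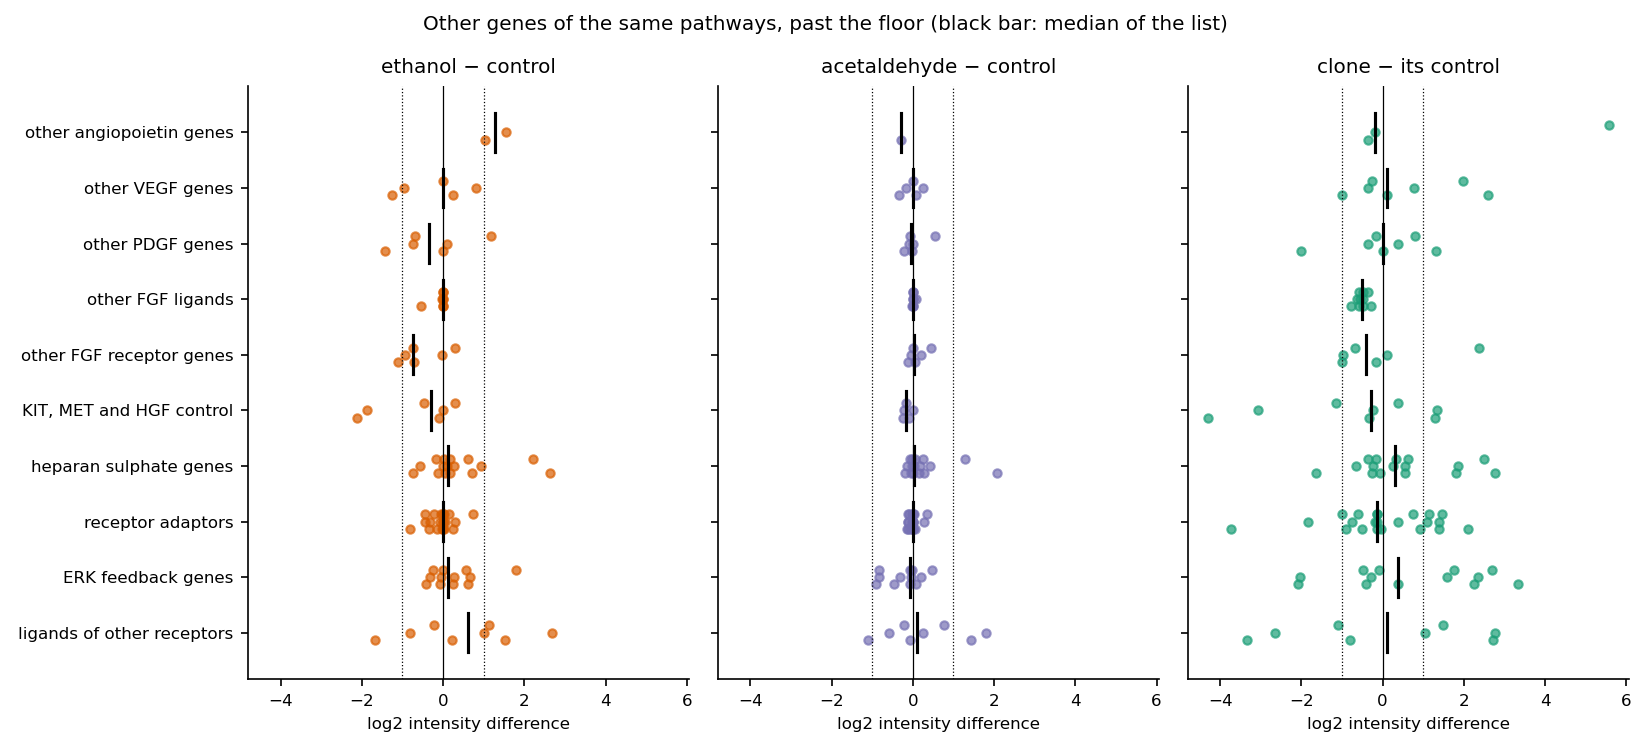
Each point is a gene of a pathway list that was past the floor, placed by its log2 intensity difference (x axis) in ethanol, acetaldehyde or the clone, with a black bar at the median of the list and dotted lines at 2-fold. Points spread least in acetaldehyde, and SVEP1 is the far right point of the clone at 5.57.

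In tissue, cells of other types make these factors and receptors, so their markers are given beside the values. The labels name only the MCF12A line for all 5 cultures, so a raised marker does not show that its cell type was present. Endothelial markers read 340.8 in sum in the control, 351.3 in ethanol and 340.8 in acetaldehyde, and 614.5 in the clone's control against 483.3 in the clone, with 2 of 7 past the floor on every array. Those past it were ROBO4 and CLDN5, at 77.3 and 79.6 on each of the first 3 arrays, with log2 differences of -0.38 and -0.37 in the clone. PECAM1, CDH5, VWF, ESAM and EMCN were under the floor on all 5 arrays. Mast cell markers were under the floor in all cultures, with 2 of 4 measured. Pericyte and smooth muscle markers summed to 983.4 in the control, 1687 in ethanol and 1420 in acetaldehyde, and to 722.8 and 2184 in the clone's control and the clone, with 4 of 6 past the floor on the first 3 arrays, 3 in the clone's control and 4 in the clone. MCAM was 2.11-fold higher in ethanol and 5.68-fold in the clone, and ACTA2 3.93-fold in the clone. MCAM alone read 1007 in ethanol and 1200 in the clone, most of those sums. ACTA2 also had log2 differences of 0.72 in ethanol and 0.96 in acetaldehyde, short of 2-fold. In acetaldehyde MCAM had 0.57, and RGS5, DES, CSPG4 and MYH11 had 0.00. In ethanol RGS5, DES, CSPG4 and MYH11 had log2 differences of 0.23, 0.26, 0.00 and -0.01, CSPG4 and MYH11 under the floor. In the clone these genes had 0.77, -0.22, 0.72 and -0.27, RGS5 and MYH11 under the floor. Fibroblast markers summed to 455.9, 563.1 and 543.7 in the first 3 arrays and to 743.4 and 1865 in the second table, with 3, 4, 4, 3 and 5 of 7 past the floor. In that table COL3A1 was 4.19-fold, COL1A1 2.21-fold, FAP at least 3.12-fold and DCN at least 1.81-fold higher in the clone, whereas COL1A2, LUM and THY1 had log2 differences of -0.20, -0.01 and -0.50, LUM and THY1 under the floor. DCN was also counted as higher in ethanol and in acetaldehyde, at 88.1 and 98.0 against 31.4, at least 1.25-fold and at least 1.40-fold. Immune markers summed to 861.3, 1624 and 1195 and to 1248 and 1177, with 2 of 4 past the floor throughout, and of these the lysosomal gene CD68 was 2.06-fold higher in ethanol. Adipocyte markers summed to 190.8, 220.5 and 197.0 and to 336.9 and 290.6, with 1 of 4 past the floor. Epithelial markers summed to 10973, 8131 and 11831, and to 22857 and 10097, of which KRT5 and KRT8 make up most. The part of these markers in the growth factor values was not tested. In bulk RNA a change in the share of cells that express a gene and in RNA per cell cannot be told apart.

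The genes most like a member were sought for the 3 with the largest mean absolute difference among the 9 genes measured in all comparisons with a control, which leaves out FGF2, ANGPT1 at 4.21, PDGFC at 2.10 and KITLG at 1.48. Likeness was the Euclidean distance over the 3 log2 differences among 10445 genes past the floor in all 3. Nearest to ANGPT1 were SRGN at a distance of 0.31, TGFB2 at 0.70 and IL7R at 0.95. SRGN, a proteoglycan of secretory granules, had log2 differences of 4.11, 3.31 and 5.41 in ethanol, acetaldehyde and the clone. Nearest to PDGFC were FBN1, the fibrillin gene, at 0.32, EPS8 at 0.34 and TGM2, a transglutaminase gene, at 0.52. FBN1 had log2 differences of 1.62, 1.12 and 3.80. Nearest to KITLG were MSC at 0.23, ZNF385B at 0.35 and ANXA6 at 0.36, and the transcription factor gene MSC had 0.99, 0.94 and 2.12. The distance rests on 3 differences, 2 of which share a control array.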

How the data were processed

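RNA from 5 MCF12A cultures was measured on Affymetrix Gene ST arrays. The deposited values are linear RMA intensity, according to the submitters' processing notes. Its version and the genome build are not given in the sources used here. The method quantile-normalises arrays and summarises each probe set by median polish, which can return the same value on several of a few arrays; whether it made the equal values here was not tested. The 2 tables are different array designs and were treated as normalised separately.

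Log2 of the intensity was taken with Python 3.11.15 and pandas 2.3.3. Probes were named through each design's annotation, with 19181 and 19460 probes having 1 symbol, 2055 and 1754 several and 12061 and 12083 none listed. Of those with 1 symbol, 19143 and 19429 matched a RefSeq record. Genes with several probes used the brightest by mean log2. With 1 array per group no test was run. The calculations were tested on simulated data. The 8 alternatives covered the floor, the fold, centring, quantile normalisation, a lowess correction, the mean of a gene's probes and dim values. The members and lists were chosen with earlier results of these data known. Named pathway genes were up to 3 each way per list and comparison past 2-fold, and the receptors of the ligands. VEGFA, PLAT, FGFRL1, the values of ETV5, SPRY4 and DUSP6 in acetaldehyde, and single marker genes were named after their values were seen.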

Additional observations from a re-analysis of the deposited data

How the results depend on the processing

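Counts of the 10 genes at least 2-fold higher or lower were within 1.5 times of the reported count in 63 of 64 recalculations over 8 alternatives. Most of the reported counts were 0, and a fall from 3 to 2 is within 1.5 times, so this figure says little about stability. The exception among the 64 was the number lower in acetaldehyde than in ethanol, 0 at 2-fold and 2 at 1.5-fold (ANGPT1 and PDGFC). Of 208 recalculated single differences, 200 kept their side of the threshold and 8 did not, and none that was counted changed sign. These 8 include ANGPT1 and PDGFC against ethanol, and FGFR1 in ethanol, which at 0.67 was counted at 1.5-fold. KITLG fell out in ethanol and acetaldehyde with the floor at the 75th percentile and, at 0.86 and 0.89, when dim values were raised to the floor, and FGFR1 fell out in the clone with the floor at the 75th percentile, since its intensity was under that floor. ANGPT1 ranged from 4.35 to 5.75 in the clone, the low value with dim values raised to the floor. The median over all probes was -0.17 in the clone, and centring on it gave 5.75 for ANGPT1, 3.66 for PDGFC, 3.21 for FGF2, 2.42 for KITLG and 1.71 for FGFR1. At 1.5-fold, 597 genes were higher and 576 lower in ethanol (296 and 275 at 2-fold), 242 and 46 in acetaldehyde (115 and 6), 3144 and 1867 in the clone (1803 and 715), and 424 and 249 in acetaldehyde against ethanol (208 and 59). With the floor at the 75th percentile 73 genes were higher in acetaldehyde than in control and 37 lower than in ethanol. Among the other pathway genes 17 were higher and 15 lower in ethanol at 1.5-fold (10 and 6 at 2-fold), 4 lower in acetaldehyde (1), 25 lower in the clone (13), and 15 higher and 13 lower in acetaldehyde against ethanol (6 and 4). Counts of single lists moved past 1.5 times in 45 of 640 recalculations. No paired analysis was possible because each group has 1 array. Leaving out a replicate was not possible for the same reason.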

Other observations

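Probes that carry several symbols name no gene above, and 3 of them list one of the 10 growth factor genes. In the table of 3 arrays both probes that list FGF2 also list its neighbour NUDT6, so neither value belongs to a single gene. The first read 62.7 in the control, 301 in ethanol and 192 in acetaldehyde, log2 differences of 2.26 and 1.61. It bears the same probe number as the probe that the annotation of the other design pairs with FGF2 alone. The second read 112 in the control and 125 in both treated cultures, log2 differences of 0.15. In the table of the clone a probe that lists EBF1 and PDGFRB read 69.7 in the clone's control and 168 in the clone, a log2 difference of 1.27, whereas the PDGFRB probe with 1 symbol had -0.41.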
